A study of Mus musculus with 13 samples.

Results

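The 33 genes described here encode proteins that fold, modify and inspect secretory and membrane proteins in the endoplasmic reticulum (ER). They were measured in Neuro2a, an established line from a mouse neuroblastoma that keeps some features of neurons. They were taken by symbol from the 34857 genes of the deposited tables, all 33 were found, and all 33 passed the filter of at least 1 FPKM in at least 3 libraries at both passages. FPKM is the number of sequenced fragments for each kilobase of a gene's transcript, relative to the library's total, so that levels can be compared between genes. Experimental cells had been frozen in vials with 10% DMSO, a cryoprotectant, and placed in a flask whose liquid nitrogen took 10 h to evaporate and which then settled at 4 °C over 24 h. They were next kept at -80 °C for 72 h, thawed at 37 °C and plated. Control cells of the same line were frozen and plated in the same way but remained in normal cryostorage until they were thawed, so both groups share the cryoprotectant, one thaw into culture and the serum-containing medium. Poly(A) RNA was taken at passage 1, soon after the stressed cells divided rapidly again (4 experimental and 3 control libraries), and at passage 6, when they looked normal (3 experimental and 3 control libraries). The cells are a tumour line in culture, and the labels do not say whether the replicates of a group came from separate vials or dishes, so p-values measure only the spread between these libraries, which may be technical.

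A library held 12014 to 12467 genes at 1 FPKM or above. The files hold no read counts, but the ratios of low values between libraries place the depth of the libraries at 1 to 1.34 times that of control 1 at passage 1, and at 0.941 to 1.08 times that of control 1 at passage 6. Of 12 neuroblastoma and sympathoadrenal markers, 10 were at 1 FPKM or above in 11 libraries and all 12 in passage 6 experimental libraries 2 and 3. The neurofilament genes Nefl and Nefm were under 1 FPKM in the other libraries. The 12 markers summed to 846 to 883 FPKM in experimental and 927 to 961 FPKM in control libraries at passage 1, and to 1165 to 1267 FPKM in experimental and 1072 to 1122 FPKM in control libraries at passage 6. Transcripts of other tissues were present. The 20 colon epithelium markers summed to 8.17 to 196 FPKM in experimental and 217 to 470.4 FPKM in control libraries at passage 1, and to 7.84 to 109.98 FPKM in experimental and 116 to 256 FPKM in control libraries at passage 6. The 12 cartilage markers summed to 15.9 to 41.8 FPKM in experimental and 12.3 to 53.4 FPKM in control libraries at passage 1, and to 20.6 to 24.9 FPKM in experimental and 37.9 to 60.1 FPKM in control libraries at passage 6. At passage 6 the 12 liver markers summed to 209 and 167 FPKM and the 8 myelin markers to 40.6 and 29.7 FPKM in experimental libraries 2 and 3. Experimental library 1 and the controls of passage 6 held at most 1.02 FPKM of the liver and 5.33 FPKM of the myelin markers. Plasma cells, which carry a very large ER, left little trace: of 8 markers, Sdc1, which other cells make as well, was the one at 1 FPKM or above, and Mzb1, Tnfrsf17 and Pou2af1 were at or near 0. The 8 summed to 23.1 to 28.01 FPKM in experimental and 21.1 to 23.1 FPKM in control libraries at passage 1, and to 52.6 to 54.5 FPKM in experimental and 35.8 to 40.6 FPKM in control libraries at passage 6. The colon, neuroblastoma and plasma cell sums separated experimental from control libraries at both passages and the cartilage sums at passage 6, and their part in the results below was not tested. In bulk RNA, fewer cells of a type and less RNA per cell cannot be told apart.

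Proteins enter the ER through the Sec61 channel and are held by the chaperone BiP, the lectins calnexin and calreticulin and the protein disulfide isomerases until they are folded. Proteins that fail are marked by mannose trimming, drawn back through a membrane complex and degraded in the cytosol (ER-associated degradation, ERAD). When unfolded protein builds up, the sensors IRE1, ATF6 and PERK start the unfolded protein response: IRE1 splices the mRNA of the transcription factor XBP1, ATF6 is cut free of the membrane to act as a transcription factor, and PERK slows translation. Induction of BiP and of other chaperone genes is the usual transcriptional sign of that response.

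ATF6 and XBP1 are known to act through the ER stress element, which is CCAAT, 9 bases and CCACG, through a second form, ATTGG, 1 base and CCACG, and through the unfolded protein response element TGACGTGG. RefSeq promoters of GRCm38.p6, 250 bases before to 50 after each start, were at hand for 27 of the 33 genes (31 promoters). On either strand, the ER stress element was found in 8 of these 31 promoters (25.8%), against 39 of all 32851 promoters (0.119%). Among 70 promoters of further ER genes 1 (1.43%), that of Derl3, held it. The second form was in 2 of 31 (6.45%), against 12 of 32851 (0.0365%), and the unfolded protein response element in 1 of 31 (3.23%), against 222 of 32851 (0.676%). It was in 5 of the 70 further ER promoters (7.14%), those of Kdelr3, Ube2j1, Sec24d, Txndc11 and Vcp. No site of one motif overlapped a site of another in these genes. The 10 genes that carry either form of the ER stress element are the group whose values are set apart at the end of the results, and their sites are printed here with the matched letters in capitals, 5′ to 3′ along the gene. Where the match lies on the opposite strand, the capitals read as the reverse complement of the motif.
Hspa5 (chr2:34772020-34772048, plus strand): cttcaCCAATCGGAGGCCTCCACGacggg
Hsp90b1 (chr10:86705628-86705666, minus strand): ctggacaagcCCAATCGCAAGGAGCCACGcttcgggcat
Hsp90b1 (chr10:86705523-86705561, minus strand): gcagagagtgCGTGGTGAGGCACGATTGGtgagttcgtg
Calr (chr8:84847065-84847103, minus strand): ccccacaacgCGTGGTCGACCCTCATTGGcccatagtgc
Canx (chr11:50325790-50325828, minus strand): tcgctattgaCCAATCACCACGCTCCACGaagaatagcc
Pdia6 (chr12:17266481-17266519, plus strand): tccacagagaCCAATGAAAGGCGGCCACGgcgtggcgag
Dnajc3 (chr14:118937817-118937855, plus strand): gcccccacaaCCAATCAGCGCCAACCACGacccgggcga
Creld2 (chr15:88819510-88819548, plus strand): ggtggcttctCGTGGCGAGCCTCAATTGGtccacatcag
Syvn1 (chr19:6046522-6046560, plus strand): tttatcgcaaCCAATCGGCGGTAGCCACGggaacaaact
Herpud1 (chr8:94386367-94386397, plus strand): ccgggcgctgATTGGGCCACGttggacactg
Dnajb11 (chr16:22857843-22857871, plus strand): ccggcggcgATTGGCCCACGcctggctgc
Txndc5 (chr13:38528035-38528062, minus strand): gcctcgccgcTGACGTGGcgctagccgc
Dnajb11 is printed because it was the one gene with an element that changed at passage 6, Txndc5 because it changed at both passages and holds the unfolded protein response element, and the others so that the sites can be compared; all were chosen after their values were seen. Hsp90b1 holds a pair of sites. The Hspa5 site, 47 to 65 bases before the RefSeq start, falls in the 5′ end of a longer GENCODE transcript, and the Dnajb11 site covers bases 8 to 18 of the transcript. The Txndc5 site also lies inside the span that GENCODE gives the gene, though in none of its annotated UTRs; the other sites printed lie outside the spans of their genes.

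**Figure D1:**
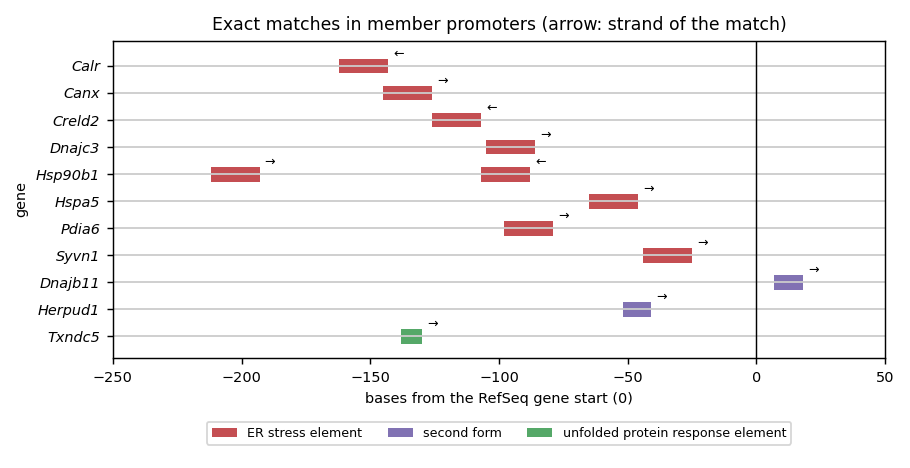
Position of each exact match in the promoters of the 11 genes that hold one, in bases from the RefSeq start at 0; bars are matches (ER stress element, its second form, unfolded protein response element) and arrows give the strand of the match. All matches lie before the start except that of Dnajb11, and Hsp90b1 holds a pair.

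The ER genes did not move as a block at either passage. At passage 1, 3 of the 33 genes were higher in experimental than in control libraries (9.09%, against 11.5% of all 12469 genes tested) and 5 were lower (15.2%, against 18.9% of all genes), by limma with Benjamini-Hochberg adjusted p under 0.05 over all genes. The disulfide isomerase gene Txndc5, the channel subunit gene Sec61b and the ERAD gene Edem1 were higher, and the ERAD genes Edem2, Derl2 and Os9, the sensor gene Ern1 and the BiP partner gene Sdf2l1 were lower. At passage 6, 6 genes were higher (18.2%, against 8.98% of 12458 genes) and 1 was lower (3.03%, against 10.8% of all genes). Those higher were Atf6b, Txndc5, Edem1, Dnajb11, Sec61a1 and Derl1, and the lower one was Sil1. The 3 largest changes of the 33 genes were those of Edem2 at passage 1 (1.44-fold lower) and of Atf6b (1.34-fold) and Txndc5 (1.300-fold higher) at passage 6. Folds are 2 to the power of the change in log2(FPKM + 1) and so understate the change of genes at low FPKM. Hspa5, the gene of BiP, was not called at either passage.

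The median size of the changes was smaller than that over all genes tested. The median absolute log2 change over the 33 genes was 0.11 at passage 1, against 0.15 over all genes tested, and 0.081 at passage 6, against 0.14. The median SD of log2(FPKM + 1) between control libraries was smaller too. It was 0.033 against 0.053 at passage 1 and 0.031 against 0.055 at passage 6. All genes tested include many at low FPKM, and genes of like level were not compared. The signed median was -0.054 at passage 1, against -0.053 over all genes, and -0.0055 at passage 6, against -0.035 over all genes. Both medians moved with the scaling of the libraries. With median-of-ratios scaling that of the 33 genes was 0.012 at passage 1, against 0.0058 over all genes. At passage 6 it was 0.034, against -0.0011. There it was 0.025 with equal FPKM totals, against -0.0091 over all genes, and 0.0063 with quantile normalization, against -0.017. The summed FPKM of the 33 genes were 2375, 2257, 2346 and 2385 in passage 1 experimental libraries and 2366, 2393 and 2415 in controls. At passage 6 they were 4720.1, 4444 and 4557 in experimental libraries and 4669, 4657 and 4519 in controls. The sums of the groups overlapped at both passages. Of the passage 6 sums, Hspa5, Hsp90b1, Calr, Canx and P4hb together made up 56.2% to 56.98% in experimental and 58.8% to 58.96% in control libraries. At passage 1 their share overlapped between groups, at 53.99% to 54.86% in experimental and 54.51% to 54.64% in control libraries.

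**Figure D2:**
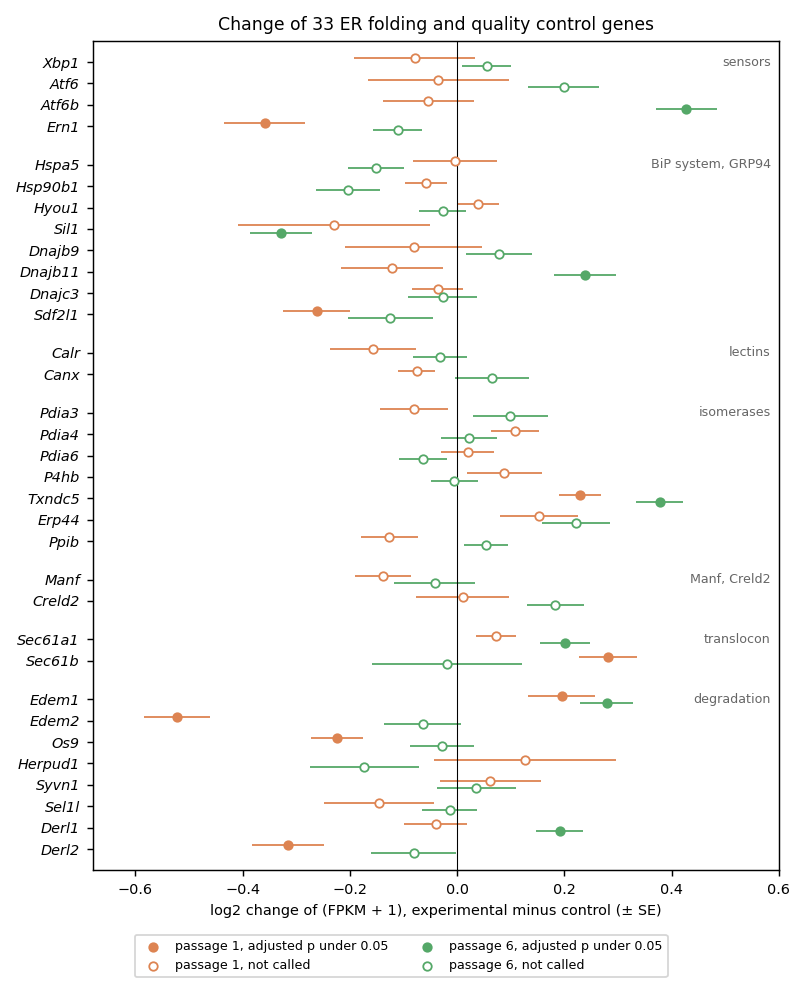
Change of the 33 ER genes on the log2(FPKM + 1) scale, experimental minus control (point, with bars of 1 SE; 4 and 3 libraries at passage 1, 3 and 3 at passage 6), with genes grouped by role; filled points have a limma adjusted p under 0.05. Edem2 at passage 1 lies lowest at -0.52 and Atf6b at passage 6 highest at 0.43, and most points lie within 0.2 of 0.

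**Figure D3:**
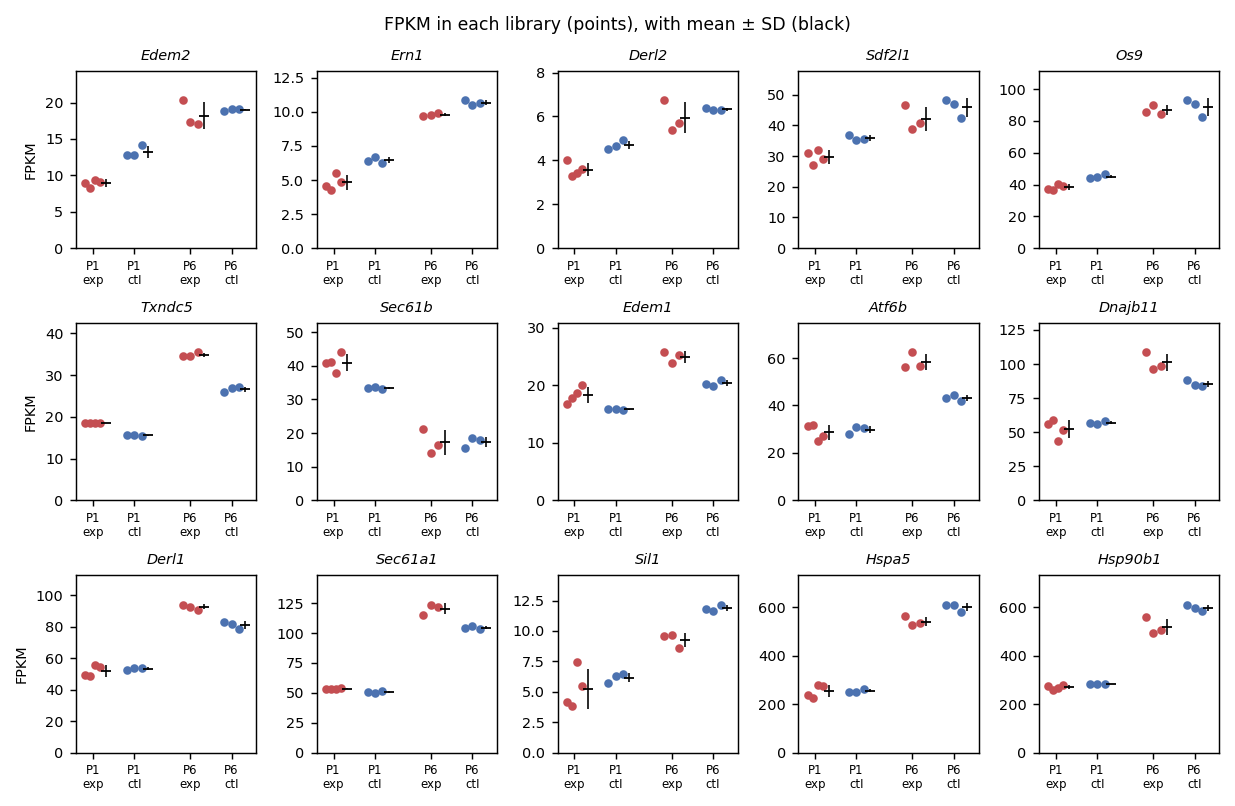
FPKM (y axis, from 0) of 15 genes in each library (points) with mean and SD (black), for experimental (exp, red) and control (ctl, blue) libraries at passages 1 and 6 (P1, P6). Edem2, Ern1, Derl2, Sdf2l1 and Os9 are lower in experimental libraries at passage 1, Txndc5 and Edem1 are higher at both passages, and Hspa5 and Hsp90b1 are lower in the experimental libraries of passage 6 without being called.

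Among the sensors, Ern1 was lower at passage 1 and Atf6b higher at passage 6. Ern1 (chr11:106394650-106487852 on GRCm38), which encodes the sensor IRE1, was at 4.58, 4.297, 5.53 and 4.89 FPKM in experimental and 6.37, 6.71 and 6.28 FPKM in control libraries at passage 1. The groups did not overlap, and the log2 change was -0.36 ± 0.076 (SE, adjusted p = 0.0103), 1.28-fold lower. At passage 6 Ern1 was at 9.72, 9.796 and 9.91 FPKM in experimental and 10.9, 10.5 and 10.6 FPKM in control libraries, and here too all experimental libraries lay below all controls, but the change of -0.11 (95% interval -0.22 to -0.0030, adjusted p = 0.129) was not called. Atf6b (chr17:34647146-34655074), which encodes the ATF6 paralogue, was at 56.05, 62.4 and 56.5 FPKM in experimental and 43.1, 44.4 and 41.7 FPKM in control libraries at passage 6. No experimental library overlapped the controls, and the change was 0.43 ± 0.057 (SE, adjusted p = 0.00465), 1.34-fold higher. At passage 1 Atf6b was at 31.2, 31.6, 25.2 and 27.1 FPKM in experimental and 28.1, 30.7 and 30.4 FPKM in control libraries, with libraries 1 and 2 above and libraries 3 and 4 below the controls and a change of -0.054 (95% interval -0.25 to 0.14, adjusted p = 0.659). The difference between its changes, passage 6 minus passage 1, was 0.48 ± 0.11 (SE, adjusted p = 0.014). Without experimental libraries 2 and 3 of passage 6, which carried liver and myelin transcripts, it was 0.43, with library 1 alone left in that group.

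Atf6 and Xbp1 were not called. Atf6, at 7.12, 7.82, 11.3 and 9.41 FPKM in experimental and 9.18, 8.72 and 9.196 FPKM in control libraries at passage 1, had experimental libraries on both sides of the controls and a change of -0.035 (95% interval -0.34 to 0.27, adjusted p = 0.861). At passage 6 it was at 15.5, 17.5 and 18.3 FPKM in experimental and 14.8, 14.6 and 14.8 FPKM in control libraries, with every experimental library above the controls and a change of 0.20 (95% interval 0.044 to 0.35, adjusted p = 0.074). Without experimental library 1 that change was 0.26 (adjusted p = 0.00523) and passed. That fit called 34.6% of all genes, in place of 19.8% with every library. Xbp1 was at 44.8, 36.6, 51.3 and 51.7 FPKM in experimental and 48.5, 48.9 and 47.5 FPKM in control libraries at passage 1, a change of -0.079 (95% interval -0.34 to 0.18, adjusted p = 0.62). Its passage 6 values were 77.1, 79.7 and 82.98 FPKM in experimental and 76.01, 76.7 and 77.97 FPKM in control libraries, a change of 0.055 (95% interval -0.053 to 0.16, adjusted p = 0.423). FPKM per gene do not separate spliced from unspliced Xbp1 mRNA, so the activity of IRE1 on it was not measured.

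In the BiP system, Hspa5 itself did not pass the threshold at either passage. Its passage 1 values were 239, 227, 280.2 and 274 FPKM in experimental and 252, 251 and 262 FPKM in control libraries, with experimental libraries 1 and 2 below and libraries 3 and 4 above the controls. The change was -0.0045 (95% interval -0.18 to 0.18, adjusted p = 0.971). At passage 6 Hspa5 was at 563, 526 and 535 FPKM in experimental and 609.8, 612 and 582 FPKM in control libraries, all experimental libraries below all controls, with a change of -0.15 (95% interval -0.27 to -0.030, adjusted p = 0.0801). Hsp90b1, the gene of the chaperone GRP94, was at 274, 259.7, 267 and 278 FPKM in experimental and 281, 281 and 281 FPKM in control libraries at passage 1. All experimental libraries lay below all controls, with a change of -0.059 (95% interval -0.15 to 0.032, adjusted p = 0.29). At passage 6 it was at 557, 495 and 505 FPKM in experimental and 610.1, 596 and 585 FPKM in control libraries, below the controls again, and its change of -0.20 (95% interval -0.34 to -0.063, adjusted p = 0.0533) missed the threshold narrowly. Without experimental library 1 of passage 6, both passed, Hspa5 at -0.18 (adjusted p = 0.0141) and Hsp90b1 at -0.26 (adjusted p = 0.00322). That fit called 34.6% of all genes, in place of 19.8% with every library.

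Sdf2l1, Dnajb11 and Sil1 were the called genes among the partners of BiP. Sdf2l1 (chr16:17130138-17132383), whose product forms a complex with the J-domain protein encoded by Dnajb11, was at 30.96, 26.97, 32.1 and 29.1 FPKM in experimental and 36.8, 35.1 and 35.6 FPKM in control libraries at passage 1. All experimental libraries lay below all controls, with a change of -0.26 ± 0.063 (SE, adjusted p = 0.0162), 1.199-fold lower. Each control was needed for the call, since the adjusted p was 0.0706, 0.0511 and 0.0583 with control 1, 2 or 3 left out. At passage 6 Sdf2l1 was at 46.5, 38.9 and 40.9 FPKM in experimental and 48.2, 47.1 and 42.5 FPKM in control libraries and not called, with a change of -0.12 (95% interval -0.31 to 0.063, adjusted p = 0.299). Without experimental library 1 it was -0.20 (adjusted p = 0.0464), in a fit that called 34.6% of all genes. Dnajb11 (chr16:22857845-22879634) was at 109, 96.4 and 98.5 FPKM in experimental and 88.2, 84.5 and 83.7 FPKM in control libraries at passage 6, without overlap, and its change was 0.24 ± 0.058 (SE, adjusted p = 0.0298), 1.18-fold higher. The adjusted p of Dnajb11 was 0.0802, 0.115 and 0.118 with control 1, 2 or 3 left out and 0.0562 with experimental library 3 left out. At passage 1 Dnajb11 was at 55.9, 59.1, 43.5 and 51.7 FPKM in experimental and 56.5, 55.98 and 58.1 FPKM in control libraries, with a change of -0.12 (95% interval -0.34 to 0.098, adjusted p = 0.364). Sil1, a nucleotide exchange factor of BiP, was at 9.56, 9.64 and 8.61 FPKM in experimental and 11.8, 11.6 and 12.2 FPKM in control libraries at passage 6. The experimental libraries all lay below the controls, and the change was -0.33 ± 0.058 (SE, adjusted p = 0.0115), 1.26-fold lower. With control 1, 2 or 3 left out Sil1 was no longer called (adjusted p = 0.0544, 0.0516 and 0.0582). At passage 1 Sil1 was at 4.15, 3.84, 7.48 and 5.51 FPKM in experimental and 5.73, 6.28 and 6.45 FPKM in control libraries, a change of -0.23 (95% interval -0.64 to 0.18, adjusted p = 0.358). Experimental library 3 alone lay above the controls there, and without it the change was -0.39 (adjusted p = 0.0359).

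The remaining partners of BiP were not called at either passage. Dnajb9, a J-domain protein gene that IRE1 signalling induces, was at 11.2, 9.26, 13.01 and 13.9 FPKM in experimental and 11.5, 13.8 and 12.2 FPKM in control libraries at passage 1, a change of -0.081 (95% interval -0.37 to 0.21, adjusted p = 0.658). At passage 6 Dnajb9 was at 21.2, 19.4 and 20.2 FPKM in experimental and 18.2, 18.8 and 20.6 FPKM in control libraries, a change of 0.078 (95% interval -0.067 to 0.22, adjusted p = 0.398). Experimental libraries lay on both sides of the controls at passage 1 and among or above them at passage 6. Hyou1, which encodes the other exchange factor of BiP, averaged 77.4 ± 0.783 FPKM in experimental and 75.3 ± 2.097 FPKM in control libraries at passage 1 (SD, n = 4 and 3), a change of 0.039 (95% interval -0.050 to 0.13, adjusted p = 0.473). At passage 6 its mean was 187 ± 4.58 FPKM in experimental and 191 ± 2.78 FPKM in control libraries (SD, n = 3 each), a change of -0.027 (95% interval -0.13 to 0.076, adjusted p = 0.689). Both intervals of Hyou1 lie between -0.13 and 0.13 on the log2 scale. Dnajc3, a further J-domain protein gene, averaged 12.4 ± 0.477 FPKM in experimental and 12.7 ± 0.237 FPKM in control libraries at passage 1, a change of -0.036 (95% interval -0.14 to 0.072, adjusted p = 0.588). At passage 6 Dnajc3 averaged 23.7 ± 1.73 FPKM in experimental and 24.2 ± 0.936 FPKM in control libraries, a change of -0.027 (95% interval -0.18 to 0.12, adjusted p = 0.791).

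Neither lectin chaperone gene was called. Calr, the gene of calreticulin, was at 283, 274, 228 and 236 FPKM in experimental and 276, 282 and 294 FPKM in control libraries at passage 1. Experimental libraries 2, 3 and 4 lay below every control and library 1 among them, and the change was -0.16 (95% interval -0.34 to 0.028, adjusted p = 0.173). At passage 6 Calr was at 614, 587 and 605 FPKM in experimental and 628, 628 and 591 FPKM in control libraries, a change of -0.033 (95% interval -0.15 to 0.086, adjusted p = 0.673). Canx, the gene of calnexin, averaged 219.7 ± 1.31 FPKM in experimental and 232 ± 1.32 FPKM in control libraries at passage 1, without overlap, and its change was -0.075 (95% interval -0.15 to 0.0042, adjusted p = 0.133). At passage 6 its mean was 444 ± 38.4 FPKM in experimental and 423 ± 6.32 FPKM in control libraries, a change of 0.065 (95% interval -0.097 to 0.23, adjusted p = 0.529). With experimental library 1 alone against the controls, it was 0.19.

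Of the isomerases, Txndc5 was higher at both passages and the other 6 were not called. Txndc5 (chr13:38500079-38528824), a protein disulfide isomerase gene, was at 18.5, 18.5, 18.5 and 18.5 FPKM in experimental and 15.7, 15.7 and 15.5 FPKM in control libraries at passage 1. The experimental libraries were nearly equal and all above the controls, and the change was 0.23 ± 0.038 (SE, adjusted p = 0.00408), 1.17-fold higher. At passage 6 Txndc5 was at 34.6, 34.5 and 35.4 FPKM in experimental and 25.9, 26.8 and 27.1 FPKM in control libraries, again without overlap, a change of 0.38 ± 0.044 (SE, adjusted p = 0.00319), 1.300-fold higher. Neither call ended when any 1 library was left out. Exons of Gm31834 and Bmp6 overlap Txndc5 on the opposite strand, and whether fragments were counted by strand is not given in the sources used here. Erp44, which retains client proteins through their thiols, averaged 18.9 ± 1.83 FPKM in experimental and 16.8 ± 0.497 FPKM in control libraries at passage 1, a change of 0.15 (95% interval -0.015 to 0.32, adjusted p = 0.148). At passage 6 Erp44 averaged 31.03 ± 2.55 FPKM in experimental and 26.4 ± 0.0846 FPKM in control libraries, a change of 0.22 (95% interval 0.071 to 0.37, adjusted p = 0.0509). At passage 6 the groups of Erp44 did not overlap, and it passed without experimental library 1 (0.17, adjusted p = 0.0431) or library 2 (0.28, adjusted p = 0.0183). Those fits called 34.6% and 13.9% of all genes.

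The more abundant isomerase genes were not called at either passage. P4hb, which encodes the classical protein disulfide isomerase, averaged 271 ± 23.4 FPKM in experimental and 255 ± 4.81 FPKM in control libraries at passage 1, a change of 0.088 (95% interval -0.072 to 0.25, adjusted p = 0.366). At passage 6 P4hb averaged 478 ± 8.35 FPKM in experimental and 479.7 ± 3.97 FPKM in control libraries, a change of -0.0055 (95% interval -0.11 to 0.098, adjusted p = 0.945). Without experimental library 2 the passage 1 change of P4hb was 0.15 (adjusted p = 0.0333). Pdia3, the isomerase that works with calnexin and calreticulin, averaged 191 ± 14.7 FPKM in experimental and 201 ± 3.75 FPKM in control libraries at passage 1, a change of -0.080 (95% interval -0.23 to 0.066, adjusted p = 0.369). At passage 6 Pdia3 averaged 379 ± 34.4 FPKM in experimental and 353 ± 6.64 FPKM in control libraries, a change of 0.099 (95% interval -0.066 to 0.26, adjusted p = 0.347). With experimental library 1 as the one experimental library, that change was 0.25. The exons of Pdia3 overlap those of Catsper2 on the opposite strand. Pdia4 averaged 68.8 ± 2.898 FPKM in experimental and 63.7 ± 0.698 FPKM in control libraries at passage 1, without overlap, a change of 0.11 (95% interval 0.0048 to 0.21, adjusted p = 0.103). With equal FPKM totals or median-of-ratios scaling Pdia4 passed at passage 1 (adjusted p = 0.0386 and 0.0171). At passage 6 Pdia4 averaged 157 ± 7.96 FPKM in experimental and 155 ± 3.07 FPKM in control libraries, a change of 0.022 (95% interval -0.10 to 0.14, adjusted p = 0.788). Pdia6 averaged 81.7 ± 3.64 FPKM in experimental and 80.5 ± 2.31 FPKM in control libraries at passage 1, a change of 0.019 (95% interval -0.093 to 0.13, adjusted p = 0.791). At passage 6 Pdia6 averaged 160.2 ± 4.36 FPKM in experimental and 167 ± 3.64 FPKM in control libraries, a change of -0.063 (95% interval -0.17 to 0.043, adjusted p = 0.35). The groups of Pdia6 did not overlap at passage 6. Ppib, the proline isomerase cyclophilin B, averaged 42.1 ± 2.33 FPKM in experimental and 45.97 ± 1.403 FPKM in control libraries at passage 1, a change of -0.13 (95% interval -0.25 to -0.0024, adjusted p = 0.111). At passage 6 Ppib averaged 66.7 ± 1.198 FPKM in experimental and 64.2 ± 0.551 FPKM in control libraries, a change of 0.054 (95% interval -0.042 to 0.15, adjusted p = 0.376). For Ppib the groups did not overlap at either passage, lying lower at passage 1 and higher at passage 6, and neither change was called; the difference between the passages was 0.18 (95% interval 0.034 to 0.33, adjusted p = 0.0922).

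Manf and Creld2, which encode lumenal proteins that leave the ER under stress, were not called. Manf was at 35.8, 32.2, 31.4 and 33.8 FPKM in experimental and 36.7, 37.2 and 36.3 FPKM in control libraries at passage 1, with all experimental libraries below all controls and a change of -0.14 (95% interval -0.26 to -0.017, adjusted p = 0.0799); without experimental library 1 it passed at -0.17 (adjusted p = 0.0314). At passage 6 it was at 47.5, 39.1 and 45.7 FPKM in experimental and 46.1, 45.9 and 43.9 FPKM in control libraries, a change of -0.042 (95% interval -0.22 to 0.14, adjusted p = 0.721). Creld2 was at 51.1, 47.6, 38.7 and 45.8 FPKM in experimental and 43.9, 46.3 and 45.5 FPKM in control libraries at passage 1, with experimental libraries on both sides of the controls and a change of 0.0100 (95% interval -0.19 to 0.21, adjusted p = 0.939). At passage 6 it was at 84.1, 80.9 and 83.00 FPKM in experimental and 71.7, 77.3 and 69.3 FPKM in control libraries, all experimental libraries above all controls, and its change of 0.18 (95% interval 0.058 to 0.31, adjusted p = 0.0518) lay just outside the threshold. Without experimental library 1 the adjusted p of Creld2 was 0.0442, in a fit that called 34.6% of all genes.

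The channel subunits differed between passages in which one was called. Sec61b (chr4:47474658-47483242), the gene of the beta subunit, was at 40.8, 41.2, 37.8 and 43.97 FPKM in experimental and 33.4, 33.8 and 33.2 FPKM in control libraries at passage 1. The groups did not overlap, and the change was 0.28 ± 0.055 (SE, adjusted p = 0.00732), 1.22-fold higher. At passage 6 it was at 21.2, 13.99 and 16.5 FPKM in experimental and 15.5, 18.4 and 17.9 FPKM in control libraries, with experimental libraries on both sides of the controls and a change of -0.019 (95% interval -0.35 to 0.31, adjusted p = 0.938). The difference of -0.30 (95% interval -0.64 to 0.036, adjusted p = 0.211) was not called. Without experimental library 1 of passage 6, which was at 21.2 FPKM, it was -0.45 (adjusted p = 0.0155). For the difference, that fit called 19.6% of all genes, in place of 14.7%. Sec61a1 (chr6:88503579-88518905), which encodes the pore-forming subunit, was at 115, 124 and 122 FPKM in experimental and 104, 106 and 103 FPKM in control libraries at passage 6, a change of 0.20 ± 0.047 (SE, adjusted p = 0.0262), 1.15-fold higher. The call rested on every control (adjusted p = 0.107, 0.0975 and 0.117 with 1 of them left out). It was also lost on leaving out experimental library 2 or 3 (adjusted p = 0.0556 and 0.0659) and with quantile normalization (adjusted p = 0.0627). At passage 1 Sec61a1 was at 53.2, 53.3, 52.9 and 53.9 FPKM in experimental and 50.4, 50.03 and 51.5 FPKM in control libraries, also without overlap, and the change of 0.073 (95% interval -0.012 to 0.16, adjusted p = 0.168) was not called; with median-of-ratios scaling its adjusted p was 0.0283.

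Of the 8 ERAD genes, 1 was higher (12.5%, against 11.5% of all genes) and 3 were lower (37.5%, against 18.9%) at passage 1. Edem2 (chr2:155701677-155729475), which encodes a protein of the mannose-trimming step, was at 8.99, 8.22, 9.41 and 9.11 FPKM in experimental and 12.8, 12.8 and 14.2 FPKM in control libraries at passage 1. Every experimental library lay well below every control, and the change was -0.52 ± 0.062 (SE, adjusted p = 0.00097), 1.44-fold lower; no single library ended the call. Its passage 6 values were 20.3, 17.3 and 17.03 FPKM in experimental and 18.9, 19.1 and 19.1 FPKM in control libraries, with library 1 above and libraries 2 and 3 below the controls and a change of -0.064 (95% interval -0.23 to 0.10, adjusted p = 0.551). The difference between the passages was 0.46 ± 0.096 (SE, adjusted p = 0.00903). Without experimental library 1 of passage 6, Edem2 was called lower there too, at -0.14 (adjusted p = 0.0327). That fit called 34.6% of all genes. Edem1 (chr6:108828641-108859356), a paralogue of Edem2, was at 16.7, 17.8, 18.6 and 20.04 FPKM in experimental and 15.9, 15.9 and 15.7 FPKM in control libraries at passage 1, the reverse of Edem2, with a change of 0.19 ± 0.062 (SE, adjusted p = 0.0467), 1.14-fold higher. It was the weakest call of passage 1, with an adjusted p of 0.127, 0.123 and 0.134 when control 1, 2 or 3 was left out. When experimental library 2, 3 or 4 was left out, it was 0.0541, 0.071 and 0.0886. At passage 6 Edem1 was at 25.7, 23.8 and 25.3 FPKM in experimental and 20.3, 19.9 and 20.96 FPKM in control libraries, without overlap, a change of 0.28 ± 0.050 (SE, adjusted p = 0.0117), 1.21-fold higher. Leaving out control 1 or 2 put its adjusted p at 0.0588 and 0.0664.

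Os9 and Derl2 were the other ERAD genes lower at passage 1. Os9 (chr10:127095650-127121131), the gene of a lectin that reads trimmed sugars, was at 37.03, 36.8, 40.5 and 39.2 FPKM in experimental and 44.2, 44.5 and 46.3 FPKM in control libraries at passage 1, without overlap. Its change was -0.22 ± 0.049 (SE, adjusted p = 0.0113), 1.17-fold lower, and the call was lost when control 3 was left out (adjusted p = 0.0599). Under median-of-ratios scaling the adjusted p of Os9 was 0.0587. At passage 6 Os9 was at 85.9, 90.2 and 84.4 FPKM in experimental and 93.03, 90.6 and 82.3 FPKM in control libraries, a change of -0.028 (95% interval -0.17 to 0.11, adjusted p = 0.766). Derl2 (chr11:71007164-71019841), which encodes a derlin of the membrane complex, was the least abundant of the 33 genes, at 3.998, 3.29, 3.404 and 3.62 FPKM in experimental and 4.52, 4.64 and 4.91 FPKM in control libraries at passage 1. The groups did not overlap, and the change was -0.32 ± 0.067 (SE, adjusted p = 0.0106), 1.24-fold lower. The adjusted p of Derl2 was 0.0529 when control 3 was left out. Its passage 6 values were 6.74, 5.38 and 5.71 FPKM in experimental and 6.405, 6.28 and 6.29 FPKM in control libraries, a change of -0.081 (95% interval -0.27 to 0.10, adjusted p = 0.491). Exons of Mis12 overlap Derl2 on the opposite strand, and Dnajb9, Hsp90b1, Manf, Pdia6, Ppib, Sec61a1, Sil1 and Syvn1 share bases with exons of other genes in the same way. On the same strand, where counting by strand would not separate them, exons overlap between Hsp90b1 and Gm15344 and Gm25745, between Manf and Rbm15b, and between Pdia4 and Mir704.

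Derl1, of the same family, was higher at passage 6. Derl1 (chr15:57869502-57892448) was at 93.9, 92.6 and 90.8 FPKM in experimental and 82.6, 81.8 and 78.2 FPKM in control libraries there, without overlap, a change of 0.19 ± 0.044 (SE, adjusted p = 0.026), 1.14-fold higher. With 1 control left out the adjusted p was 0.0858, 0.1 and 0.127, and with quantile normalization it was 0.0506. At passage 1 it was at 49.1, 48.3, 55.4 and 54.4 FPKM in experimental and 52.3, 53.5 and 53.8 FPKM in control libraries, with experimental libraries on both sides of the controls and a change of -0.040 (95% interval -0.17 to 0.094, adjusted p = 0.631). The difference between the passages was 0.23 (95% interval 0.069 to 0.39, adjusted p = 0.057).

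Herpud1, Syvn1 and Sel1l were not called. Herpud1, an ERAD gene that is strongly induced by ER stress, was at 50.7, 43.4, 72.9 and 70.1 FPKM in experimental and 53.9, 52.5 and 52.6 FPKM in control libraries at passage 1, with libraries 1 and 2 below and libraries 3 and 4 above the controls and a change of 0.13 (95% interval -0.26 to 0.52, adjusted p = 0.601). It had the widest interval of the ERAD genes there. At passage 6 Herpud1 was at 67.7, 74.3 and 90.4 FPKM in experimental and 90.7, 86.4 and 83.7 FPKM in control libraries, a change of -0.17 (95% interval -0.41 to 0.066, adjusted p = 0.261). Without experimental library 3 it was -0.29 (adjusted p = 0.0407), and with experimental library 1 alone against the controls it was -0.36. Syvn1, the ubiquitin ligase HRD1 of the complex, averaged 9.098 ± 1.26 FPKM in experimental and 8.62 ± 0.227 FPKM in control libraries at passage 1, a change of 0.062 (95% interval -0.16 to 0.28, adjusted p = 0.648). At passage 6 Syvn1 averaged 23.4 ± 2.37 FPKM in experimental and 22.8 ± 0.362 FPKM in control libraries, a change of 0.035 (95% interval -0.14 to 0.21, adjusted p = 0.762). Sel1l, its membrane partner, averaged 8.31 ± 1.33 FPKM in experimental and 9.23 ± 0.114 FPKM in control libraries at passage 1, a change of -0.15 (95% interval -0.38 to 0.090, adjusted p = 0.31). At passage 6 Sel1l averaged 17.99 ± 0.661 FPKM in experimental and 18.2 ± 0.634 FPKM in control libraries, a change of -0.014 (95% interval -0.13 to 0.11, adjusted p = 0.872). Without experimental library 3, whose 10.03 FPKM were the highest of passage 1, Sel1l was at -0.23 (adjusted p = 0.0454).

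The counts differed when libraries were left out, and the share of all genes called moved as well; it was 30.4% at passage 1 and 19.8% at passage 6 with every library. At passage 1, without control 3, 2 genes were higher and 2 lower, with 17.02% of all genes called. Between the libraries that carried cartilage transcripts (experimental libraries 1 to 3 and controls 2 and 3), 1 gene, Edem2, was lower and 0 were higher in limma (2 higher and 5 lower at an unadjusted p under 0.05), where 976 of all genes (8.02%) were called in place of 3792. At passage 6, without control 1, 2 or 3, 2, 2 and 3 genes were higher and 0 lower in limma (9, 8 and 8 higher and 2, 2 and 3 lower at an unadjusted p under 0.05), and 767, 670 and 749 of all genes (6.26%, 5.47% and 6.12%) were called in place of 2462. Shares of all genes at an unadjusted p were not taken, so the unadjusted counts have no background. Without experimental library 1 of passage 6, 9 genes were higher and 5 lower, with 34.6% of all genes called, and without experimental library 3, 4 were higher and 2 lower, with 12.9% called. With experimental libraries 2 and 3, which carried liver and myelin transcripts, left out together, 9 were higher and 2 lower, with 20.3% of all genes called. The part of the tissue transcripts in the counts was not tested. With median-of-ratios scaling 5 genes were higher and 4 lower at passage 1, with 28.6% of all genes called. With quantile normalization 4 were higher and 2 lower at passage 6, with 18.7% called.

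Experimental libraries of passage 1 differed among themselves in these genes. Libraries 3 and 4 both lay above libraries 1 and 2 for 14 of the 33 genes (42.4%, against 25.5% of all genes tested) and both below them for 6 (18.2%, against 28.8%). For Hspa5, Herpud1, Xbp1, Atf6 and Derl1, all controls lay above libraries 1 and 2 and below libraries 3 and 4. This holds for 5 of 33 genes (15.2%), 1 of 79 further ER genes (1.27%, Ddit3) and 208 of 12469 (1.67%). The count leaves out the reverse order, in which Atf6b had libraries 1 and 2 above and libraries 3 and 4 below the controls. The 6 genes with libraries 3 and 4 below libraries 1 and 2 were Calr, Dnajb11, Atf6b, Creld2, Pdia3 and Ppib. This grouping of the libraries was noticed in the values and is given as a description with no test. In libraries 1 to 4 the mitochondrial transcripts made up 14.7%, 14.01%, 12.3% and 13.6% of the FPKM and the colon markers 196, 178, 8.17 and 89.5 FPKM, and their part in the pattern was not tested. The standard deviation of log2(FPKM + 1) was larger in experimental than in control libraries for 29 of the 33 genes at passage 1 (87.9%, against 79.6% of all genes) and for 26 at passage 6 (78.8%, against 77.2%).

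**Figure D4:**
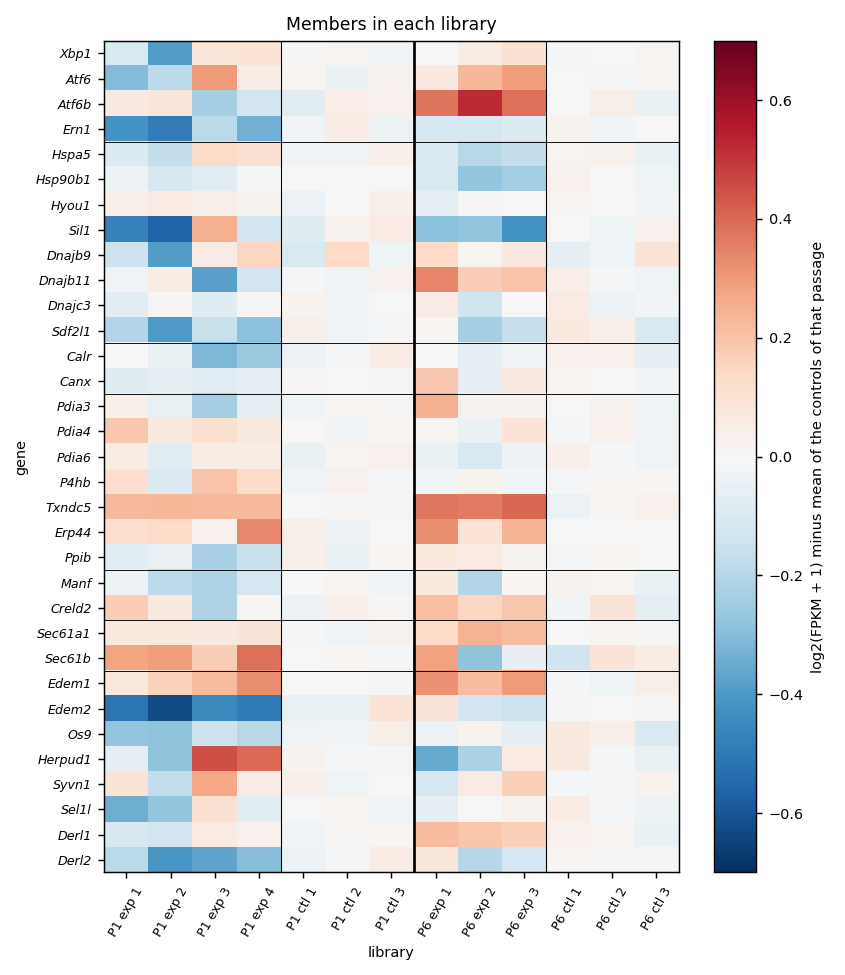
Each of the 33 genes (rows, by role) in each of the 13 libraries (columns; P1 and P6 are passages, exp and ctl experimental and control), as log2(FPKM + 1) minus the mean of the controls of that passage. Edem2 and Ern1 are low in all 4 experimental libraries of passage 1, Txndc5 is high in all 7 experimental libraries, and Herpud1, Hspa5, Xbp1 and Atf6 are high in libraries 3 and 4 and low in libraries 1 and 2 of passage 1.

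The changes at the 2 passages were also compared directly, as the passage 6 change minus the passage 1 change over the 13 libraries. Of the 33 genes, 2 had a difference above 0 that passed (6.06%, against 8.46% of 13019 genes), Atf6b at 0.48 ± 0.11 (SE, adjusted p = 0.014) and Edem2 at 0.46 ± 0.096 (SE, adjusted p = 0.00903). In the other direction 0 passed in limma, against 6.27% of all genes. At an unadjusted p under 0.05 in limma, 10 had a difference above 0 and 0 below. The share of all genes at that unadjusted threshold was not taken, so this split has no background. The median difference was 0.13, against 0.016 over all genes. Among genes that did not pass, Dnajb11 had a difference of 0.36 (95% interval 0.093 to 0.63, adjusted p = 0.0694), Txndc5 of 0.15 (95% interval 0.038 to 0.26, adjusted p = 0.0701) and Ern1 of 0.25 (95% interval 0.050 to 0.45, adjusted p = 0.0875). Leaving out experimental library 2 or 3 of passage 1 gave 4 and 5 genes, all above 0, in place of 2. The share of all genes called there was 17.2% and 15.2%, in place of 14.7%. Leaving out experimental library 1 of passage 6 gave 3 above and 2 below 0, with 19.6% of all genes called. For Ern1 the difference without passage 1 experimental library 3 was 0.31 (adjusted p = 0.0143). Dnajb11 without experimental library 2 or 3 of passage 1 was at 0.42 and 0.27 (adjusted p = 0.0262 and 0.0433).

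Of 80 further genes of the ER, which cover oxidation, translocation, glycosylation, degradation, retrieval and stress signalling, 8 of 79 tested were higher at passage 1 (10.1%, against 11.5% of all genes) and 14 lower (17.7%, against 18.9%). At passage 6, 16 of 78 were higher (20.5%, against 8.98%) and 7 lower (8.97%, against 10.8%). With median-of-ratios scaling the counts were 12 higher and 9 lower at passage 1 and 21 higher and 4 lower at passage 6. Of all genes 28.6% and 19.6% were called there. With equal FPKM totals the counts were 10 and 9, and 18 and 4, with 28.3% and 17.7% of all genes called. The number called at passage 1 was 22, and 13, 12 and 10 without control 1, 2 or 3, where 16.99%, 16.7% and 17.02% of all genes were called in place of 30.4%. At passage 6 it was 23, and 4, 3 and 4 without control 1, 2 or 3, and 35 and 15 without experimental library 1 or 3, with the shares of all genes given above for the same fits. By subgroup at passage 1, oxidases and further isomerases had 1 higher and 4 lower of 16, translocation genes 3 and 2 of 15, glycosylation genes 1 and 3 of 13, degradation genes 1 and 3 of 16, retrieval genes 1 and 0 of 7, and further stress-sensing genes 1 and 2 of 12. At passage 6 the same subgroups had 1 higher and 1 lower of 16, 4 and 0 of 15, 4 and 3 of 13, 4 and 1 of 15, 1 and 0 of 7, and 2 and 2 of 12.

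The largest called change among these genes at passage 1 was that of Kdelr3, a receptor that returns ER proteins from the Golgi. Kdelr3 was at 6.85, 5.78, 10.2 and 8.36 FPKM in experimental and 2.49, 4.05 and 2.72 FPKM in control libraries, without overlap, a change of 1.10 ± 0.19 (SE, adjusted p = 0.00435), 2.14-fold higher. Ppp1r15b, which directs a phosphatase to the translation factor eIF2α, was at 31.8, 31.3, 38.3 and 39.1 FPKM in experimental and 22.8, 22.5 and 23.1 FPKM in control libraries, also without overlap, a change of 0.59 ± 0.086 (SE, adjusted p = 0.00224). Among called genes, the ubiquitin-conjugating enzyme gene Ube2j1 followed with a log2 change of 0.32 ± 0.059 (SE, adjusted p = 0.00635), and the proline isomerase gene Fkbp14 with 0.29 ± 0.091 (SE, adjusted p = 0.0449). For Fkbp14 the adjusted p was 0.112, 0.138 and 0.106 when control 1, 2 or 3 was left out, and 0.059 and 0.1 when experimental library 3 or 4 was. Lowest at passage 1 was the proline isomerase gene Fkbp2, at 14.7 ± 1.21 FPKM in experimental and 21.3 ± 1.28 FPKM in control libraries, a change of -0.52 ± 0.072 (SE, adjusted p = 0.00189). The glucosidase I gene Mogs was at 28.4 ± 1.77 FPKM in experimental and 38.5 ± 1.38 FPKM in control libraries, a change of -0.43 ± 0.057 (SE, adjusted p = 0.0017). The translocon-associated gene Ssr4 changed by -0.31 ± 0.058 (SE, adjusted p = 0.00611), and Sdf2, a paralogue of Sdf2l1, by -0.31 ± 0.061 (SE, adjusted p = 0.00843).

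At passage 6 the genes with the highest changes included those of degradation and glycosylation proteins. Ubxn4, whose product recruits the ATPase p97 to the ER membrane, was at 23.8, 21.8 and 23.8 FPKM in experimental and 16.1, 16.7 and 16.7 FPKM in control libraries, without overlap, a change of 0.46 ± 0.053 (SE, adjusted p = 0.00302), 1.38-fold higher. The change was 0.35 ± 0.049 (SE, adjusted p = 0.00523) for Stt3b, a catalytic subunit of oligosaccharyltransferase. Selenos, which links p97 to the degradation complex, changed by 0.34 ± 0.080 (SE, adjusted p = 0.0275), a call lost on leaving out any control or experimental library 3 (adjusted p from 0.0808 to 0.104). Mbtps1, the gene of the site-1 protease that cuts ATF6 in the Golgi, changed by 0.33 ± 0.060 (SE, adjusted p = 0.0121), and its adjusted p was 0.056, 0.0531 and 0.0583 when control 1, 2 or 3 was left out. Ddit3, the gene of the stress transcription factor CHOP, was the lowest, at 18.8, 16.7 and 15.3 FPKM in experimental and 25.8, 28.5 and 24.6 FPKM in control libraries without overlap, a change of -0.61 ± 0.085 (SE, adjusted p = 0.00524), 1.53-fold lower. At passage 1 Ddit3 was at 35.1, 27.5, 53.4 and 51.9 FPKM in experimental and 39.6, 39.4 and 41.4 FPKM in control libraries, with libraries 1 and 2 below and libraries 3 and 4 above the controls and a change of 0.012 (95% interval -0.48 to 0.50, adjusted p = 0.971). Ppp1r15a, the stress-induced relative of Ppp1r15b also called GADD34, was at 26.9, 29.8 and 32.9 FPKM in experimental and 39.1, 37.5 and 37.1 FPKM in control libraries at passage 6, a change of -0.34 ± 0.075 (SE, adjusted p = 0.0224). Its adjusted p was 0.0891, 0.0806 and 0.0736 when control 1, 2 or 3 was left out and 0.0586 when experimental library 2 was. The proline isomerase gene Fkbp11 changed by -0.31 ± 0.089 (SE, adjusted p = 0.0492) and the p97 cofactor gene Ufd1 by -0.25 ± 0.062 (SE, adjusted p = 0.0305). Both calls were lost on leaving out any control or experimental library 2 or 3 (adjusted p from 0.0698 to 0.161). Without experimental libraries 2 and 3, which carried liver and myelin transcripts, the change was -0.14 for Fkbp11, -0.15 for Ufd1 and 0.22 for Mbtps1. Library 1 alone was left in that group.

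Eif2ak3, Ero1l and Kdelr2, named whatever their values, were not called. The first, the gene of PERK, averaged 6.01 ± 0.378 FPKM in experimental and 5.65 ± 0.198 FPKM in control libraries at passage 1, a change of 0.075 (95% interval -0.061 to 0.21, adjusted p = 0.364). At passage 6 Eif2ak3 averaged 11.2 ± 0.356 FPKM in experimental and 10.8 ± 0.409 FPKM in control libraries, a change of 0.049 (95% interval -0.074 to 0.17, adjusted p = 0.535). Ero1l, the oxidase that recharges protein disulfide isomerase and that hypoxia is also known to induce, was at 40.6, 28.04, 81.1 and 60.7 FPKM in experimental and 32.01, 33.98 and 32.1 FPKM in control libraries at passage 1. Experimental libraries 1, 3 and 4 lay above the controls and library 2 below, and the change was 0.56 (95% interval -0.14 to 1.27, adjusted p = 0.198); without library 2 it was 0.82 (adjusted p = 0.0276). At passage 6 Ero1l averaged 59.9 ± 1.79 FPKM in experimental and 63.4 ± 2.16 FPKM in control libraries, a change of -0.079 (95% interval -0.19 to 0.033, adjusted p = 0.274). Kdelr2, the main retrieval receptor gene by level here, averaged 89.6 ± 3.08 FPKM in experimental and 87.8 ± 2.36 FPKM in control libraries at passage 1, a change of 0.028 (95% interval -0.073 to 0.13, adjusted p = 0.658). At passage 6 Kdelr2 averaged 172 ± 9.85 FPKM in experimental and 165 ± 1.42 FPKM in control libraries, a change of 0.059 (95% interval -0.066 to 0.18, adjusted p = 0.46).

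Set out by promoter, the 10 of the 33 genes with either form of the ER stress element, whose sites are printed above, had log2 changes between -0.16 and 0.13 at passage 1, with a median of -0.020 and 0 called in limma (0 also at an unadjusted p under 0.05). The 17 with a RefSeq promoter and no such element ranged from -0.52 to 0.28, with a median of -0.080, and 3 were higher and 5 lower. Of all genes tested, 11.5% were higher and 18.9% lower. At passage 6 the genes with the element ranged from -0.20 to 0.24, with a median of -0.030 and 1 higher (Dnajb11). Those without it ranged from -0.12 to 0.43, with a median of 0.022 and 3 higher. Of all genes tested, 8.98% were higher and 10.8% lower. At an unadjusted p under 0.05 in limma, Creld2 was also higher and Hspa5 and Hsp90b1 lower among genes with the element. Among those without it, Erp44 was also higher and Ern1 lower. The share of all genes at that unadjusted threshold was not taken. The 6 genes whose promoters were not at hand, Hyou1, Sil1, Derl1, Sec61a1, Atf6 and Manf, stand outside this division. The division is a description of exact matches in a short window and was given no test.

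Per kilobase, 6 genes stood far above the rest. In passage 1 controls Calr, Hsp90b1, Hspa5, P4hb, Canx and Pdia3 averaged 201 to 284 FPKM, Pdia6 came next at 80.5 FPKM, and Derl2 was last at 4.69 FPKM. The order of Calr and Hsp90b1 was within the spread of Calr (284 ± 9.32 and 281 ± 0.0568 FPKM), as was that of Hspa5 and P4hb (255 ± 5.91 and 255 ± 4.81 FPKM). In the passage 6 table, 32 of the 33 genes had a higher mean than in the passage 1 table, in both groups of libraries. The median ratio of passage 6 to passage 1 was 1.92 in experimental and 1.65 in control libraries, against 0.8285 and 0.8202 over all genes. Sec61b was the exception, at 0.421 and 0.516 of its passage 1 level. The tables were deposited separately, and how they were scaled to each other is not stated, so these ratios carry no test. The mitochondrial share of the FPKM was 25.03% to 26.8% in experimental and 27.1% to 27.4% in control libraries at passage 6, and 12.3% to 14.7% in experimental and 14.5% to 14.8% in control libraries at passage 1.

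**Figure D5:**
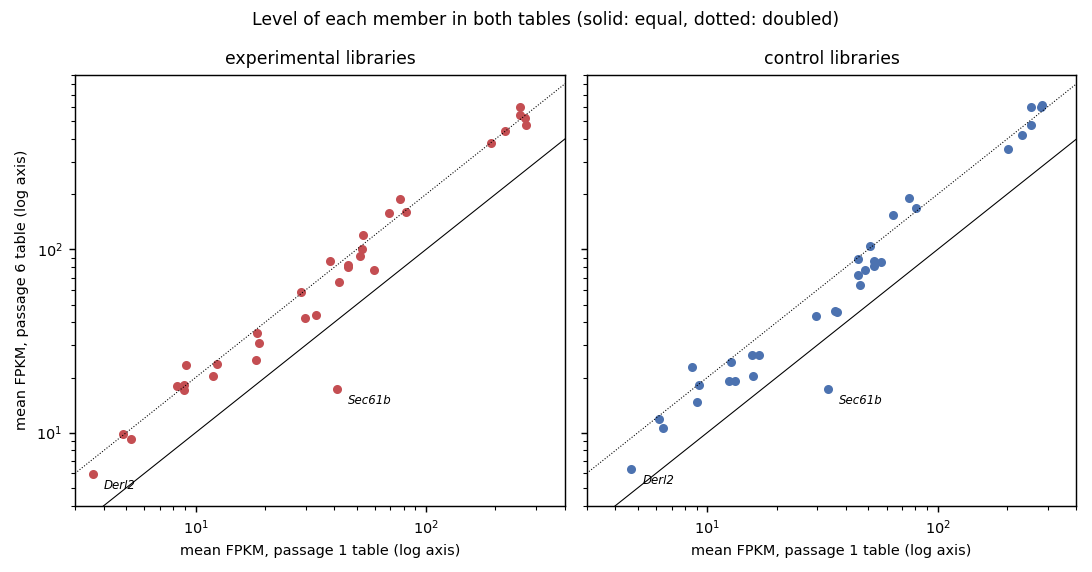
Mean FPKM of each of the 33 genes (points) in the passage 6 table (y, log axis) against the passage 1 table (x, log axis), in experimental (left, red) and control libraries (right, blue); the solid line marks equal levels and the dotted line a doubled level. All genes but Sec61b lie above the solid line.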

How the data were processed

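Poly(A) RNA of Neuro2a cells was sequenced in 13 libraries. The authors deposited FPKM per Ensembl gene in 1 table per passage, per the file headers. The tools named, per the submitters' processing notes, are StringTie, HISAT2, cutadapt, edgeR and DESeq2, and the genome build is mm10; their versions and roles, the scaling between libraries and any use of strand are not given in the sources used here. The libraries were made with a kit that marks the strand, per the labels' protocols, from RNA with an integrity number above 7.0. Groups followed the labels. The 33 genes, the lists and the alternatives were chosen with earlier results of these data known.

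Each passage was fitted on its own by limma 3.58.1 (R 4.3.3), on log2(FPKM + 1), with an intensity trend and two-sided tests. Genes had to reach 1 FPKM in 3 or more libraries, and p was adjusted by Benjamini-Hochberg over all genes tested, with a threshold of 0.05. The difference between passages was a contrast over 13 libraries. The fit was tested on simulated data. One gene with an empty cell was left out, and of 2 identifiers for Ddit3 the one with the higher mean was used. Named were all called genes of the 33 and the best-known ones with every library, and of the 80 further genes the 4 largest called changes per direction and passage, with Ddit3, Eif2ak3, Ero1l and Kdelr2 always. Promoter sequences are from RefSeq (GRCm38.p6), coordinates from GENCODE M21 (GRCm38), 1-based. Protein sequences were not analysed here, and 1 gene of the further list is not reported here. Absolute depth is unknown from FPKM, so precision rests on the spread between libraries. Alternatives were pseudocounts of 0.1 and 5, no filter or 5 FPKM, 3 other scalings, limma without trend or with array weights, a replicate block, leaving out each library, and leaving out libraries by tissue transcripts. Further software was matplotlib 3.10.9, pandas 2.3.3, numpy 2.4.6, scipy 1.17.1 and Python 3.11.15.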

Additional observations from a re-analysis of the deposited data

Results flagged for a closer look

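In 52 groups of 4 libraries checked for a library far from the others, 2 were found, about as many as chance gives at 1 in 20. Pdia6 at passage 1 had an experimental library at 76.2 FPKM, below the other 3 at 83.4, 83.6 and 83.5 FPKM. For Txndc5 at passage 1, the highest experimental library was at 18.55 FPKM and the other 3 between 18.45 and 18.47 FPKM.

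The change at passage 6 minus the change at passage 1 passed the threshold for 8 of the 52 genes named, by the contrast over 13 libraries in limma, against 14.7% of all genes. The 6 further ER genes among the 8 were named for a large change at 1 passage, a choice that favours a difference between passages. Of all 79 further ER genes tested, 12 had a difference above 0 (15.2%, against 8.46% of all genes) and 3 below 0 (3.797%, against 6.27%). It was above 0 for Atf6b at 0.48 ± 0.11 (SE, adjusted p = 0.014), Edem2 at 0.46 ± 0.096 (SE, adjusted p = 0.00903), Fkbp2 at 0.44 ± 0.10 (SE, adjusted p = 0.0162), Ubxn4 at 0.34 ± 0.089 (SE, adjusted p = 0.0242) and Stt3b at 0.26 ± 0.062 (SE, adjusted p = 0.0184). It was below 0 for Kdelr3 at -0.84 ± 0.25 (SE, adjusted p = 0.0415), Ppp1r15b at -0.60 ± 0.12 (SE, adjusted p = 0.00714) and Ppp1r15a at -0.72 ± 0.20 (SE, adjusted p = 0.0302). Leaving out 1 library ended the call in 9 cases for Kdelr3 (adjusted p up to 0.1), 8 for Ppp1r15a (up to 0.0727), 3 for Ubxn4 (up to 0.0657) and 2 for Stt3b (up to 0.0552), and in none for the other 4.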

How the results depend on the processing

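Of 3116 values of single genes under the alternatives, 2874 kept their direction and side of the threshold where called, 89 passed newly and 153 no longer passed; 108 values that were never called changed sign, and no called value did. Summed FPKM of the 33 genes moved by more than the spread of their group in 5 of 13 libraries with equal FPKM totals.

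Leaving out 1 library gave 2 to 3 genes higher and 2 to 7 lower at passage 1, 2 to 9 higher and 0 to 5 lower at passage 6, and 2 to 5 differing between passages; of the further ER genes it gave 10 to 24 at passage 1 and 3 to 35 at passage 6. The same fits called 16.7% to 32.8% of all genes at passage 1 and 5.47% to 34.6% at passage 6. For the difference they called 8.98% to 19.6%. With 1 library left in a group, limma assumes that it varies like the others, so only the size of a change is given for such fits. With median-of-ratios scaling 5 genes were higher at passage 1, in place of 3, with 28.6% of all genes called in place of 30.4%. With the cartilage-carrying libraries alone, 0 were higher and 1 lower at passage 1, in place of 3 and 5. There 3 further ER genes were called in place of 22, with 8.02% of all genes called. At passage 6 the number lower was 2 with a minimum of 5 FPKM and with quantile normalization, and 3 with array weights, in place of 1. These fits called 25.8%, 18.7% and 28.4% of all genes, in place of 19.8%. Array weights gave 10 genes differing between passages in place of 2, with 24.5% of all genes called in place of 14.7%. Without a filter 12 further ER genes were called at passage 6 in place of 23, with 4.11% of 31320 genes called. The cause of these shifts was not tested. Fits that left libraries out also held fewer libraries.

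The labels do not say whether replicate numbers pair the libraries, and the values do not settle it. Deviations of same-numbered libraries correlated at 0.17, -0.19 and 0.24 at passage 1. At passage 6 they correlated at -0.066, -0.060 and 0.033. Not every library correlated best with its own number. With the replicate block, on same-numbered libraries alone, 1 gene was higher and 2 lower at passage 1, with 14.5% of all genes called. At passage 6, 3 were higher and 1 lower, with 11.5% of all genes called. Between passages 1 gene differed, with 5.59% of all genes called. In the same fits 7 further ER genes were called at each passage. Absolute depth is not recorded in FPKM, so for genes near 5 FPKM, such as Derl2 and Sil1, counting error cannot be separated from other spread.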
